A study of Mus musculus with 6 samples.

Results

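Keratins are the proteins of the intermediate filaments of epithelial cells, and the family was taken here as every gene of the mRNA table whose symbol is Krt followed by a number and at most 1 letter. This gave 53 genes out of 21954. Of these, 23 averaged at least 0.5 FPKM over the 6 libraries and were tested, and 30 lay under that level. FPKM divides the fragments of a gene by its transcript length and by the mapped fragments of the library, so levels may be compared between genes.

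Polyadenylated RNA was sequenced from whole thymus of wild-type C57BL mice aged 5 weeks. The control group holds 3 libraries from mice that received no radiation, and the irradiated group 3 libraries from mice that received 6 Gy of X-rays. All were killed with sodium pentobarbital, 24 h later in the irradiated group. The labels name 3 mice a group without saying which library came from which mouse, so a p-value here covers only the variation from library to library. The question addressed is which transcripts differ in irradiated thymus a day after exposure.

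A keratin filament is built from dimers that join a type I and a type II keratin, so keratin genes are expressed in pairs. Krt8 and Krt18 are the pair of simple epithelia, Krt5 and Krt14 that of basal cells in layered epithelia, and Krt1 and Krt10 that of layers that cornify. In the thymus keratins belong to the epithelial network that supports thymocytes, with Krt8 and Krt18 prominent in the cortex and Krt5 and Krt14 in the medulla, where cornified epithelial cells also occur. Thymocytes, the large majority of thymic cells, are not epithelial.

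The genes lie in a pair of clusters. On the deposited coordinates, which match GRCm38 for 60 of 60 member transcripts, 27 genes lie on chromosome 11 between 99232761 and 100269871 and 26 on chromosome 15 between 101347444 and 102032027. The family has 28 type I and 25 type II genes. All type I genes are on chromosome 11 except Krt18, which lies 23697 bases from its partner Krt8 at the end of the chromosome 15 cluster.

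The bases before the start sites of 5 keratins are shown because these genes stand for the simple, basal, cornified and mucosal groups described below. They were taken from RefSeq (GRCm38.p6), which had a promoter entry for 36 of the 53 genes and for 13 of the 23 tested. Capitals mark TATAAA or ATAAAA on the reading strand, the core of a TATA box, between 50 and 11 bases before the RefSeq start. Each sequence ends before the start given in the deposited table.
Krt5 (basal, type II, chr15:101712906-101713155, minus strand): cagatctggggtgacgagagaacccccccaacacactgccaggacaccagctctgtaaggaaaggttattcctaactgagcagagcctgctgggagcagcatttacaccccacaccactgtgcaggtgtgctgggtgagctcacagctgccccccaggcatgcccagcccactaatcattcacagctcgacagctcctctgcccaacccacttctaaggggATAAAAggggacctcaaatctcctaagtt
Krt13 (mucosal, type I, chr11:100121567-100121816, minus strand): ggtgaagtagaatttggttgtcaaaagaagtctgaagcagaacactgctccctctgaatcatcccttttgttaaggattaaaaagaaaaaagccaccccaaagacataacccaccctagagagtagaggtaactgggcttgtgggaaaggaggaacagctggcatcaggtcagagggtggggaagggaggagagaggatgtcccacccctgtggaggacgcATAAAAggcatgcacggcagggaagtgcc
Krt10 (cornified, type I, chr11:99389365-99389614, minus strand): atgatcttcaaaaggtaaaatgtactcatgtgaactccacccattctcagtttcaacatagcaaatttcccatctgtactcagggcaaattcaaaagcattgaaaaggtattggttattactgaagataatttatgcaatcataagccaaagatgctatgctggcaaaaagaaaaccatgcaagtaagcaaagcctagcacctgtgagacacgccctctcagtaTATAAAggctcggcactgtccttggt
Krt8 (simple, type II, chr15:102004483-102004592, minus strand): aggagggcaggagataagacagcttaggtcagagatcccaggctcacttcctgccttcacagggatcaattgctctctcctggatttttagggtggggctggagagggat
Krt18 (simple, type I, chr15:102027966-102028179, plus strand): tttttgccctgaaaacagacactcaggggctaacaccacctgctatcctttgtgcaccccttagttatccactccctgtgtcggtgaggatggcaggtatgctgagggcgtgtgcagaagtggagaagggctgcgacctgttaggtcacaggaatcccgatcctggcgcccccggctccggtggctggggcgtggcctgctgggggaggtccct

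The capitals begin 29 bases before the RefSeq start in Krt5 and Krt13 and 26 bases before it in Krt10. Neither motif was found in the 250 bases before the RefSeq start of Krt8 or Krt18, of which 110 and 214 bases are shown. TATAAA or ATAAAA stood in this window in 21 of 37 keratin promoters (56.8%), against 3.71% of 32851 mouse promoters of the same length. TATAAA alone, on either strand of the 250 bases, was in 45.9% of keratin promoters and 12.4% of all. The GC box GGGCGG, on either strand, was in 5.41% of keratin promoters and 32.7% of all. ATAAAA, which can overlap TATAAA, was added to the search after the sequences had been read. These matches describe letters only.

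The 6 libraries differed in more than keratins. Controls held about 21950000 to 23250000 fragments and irradiated libraries about 24350000 to 25500000, as estimated from the smallest steps of the values, and 11274 to 11453 and 12853 to 13711 genes reached 1 FPKM. All 9 listed genes of double-positive thymocytes, the main cell of the cortex, fell, beside 20.9% of all tested genes in the fit described below. The 9 include the chemokine receptor Ccr9 (log2 fold change -5.23) and the coreceptor chain Cd8b1 (-4.47). Their summed FPKM was 1908 to 2219 in controls and 59.6 to 109 in irradiated libraries. In bulk tissue a smaller number of cells of a type and less RNA per cell cannot be told apart, and FPKM is relative to all other RNA of the library. Irradiated replicate 2 stands apart in airway genes, whose sum over 11 genes was 3656 FPKM there, 54.0 to 58.2 in the other irradiated libraries and 4.05 to 5.45 in controls. Scgb1a1, the main secretory gene of airway club cells, measured 811 FPKM there and at most 2.0 in the others, and Sftpb, a lung surfactant gene, 0.365 there and 0 in the other 5 libraries. Skeletal muscle genes summed to 143 FPKM in irradiated replicate 2, to 32.8 in replicate 3 and to 5.64 in replicate 1, against 6.15 to 6.82 in controls. Keratin results that rest on 1 library, and the counts of these lists, are given below with and without it.

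Keratins were higher in the irradiated thymus. Of the 23 tested, 20 rose, 0 fell and 3 did not pass (limma on log2(FPKM + 0.1), Benjamini-Hochberg adjusted p under 0.05 over 14001 genes). In the same fit 42.4% of all tested genes were higher and 20.9% lower. The median log2 fold change of the tested keratins was 2.32, against 0.40 for all tested genes. At an unadjusted p under 0.05, 20 keratins were higher and 0 lower, and in the authors' deposited table, made with DESeq2, 27 of 52 keratins were higher and 0 lower, with 32.5% of 19142 genes higher. Values of the groups did not overlap for 22 of 23 keratins, against 46.1% of all tested genes with every irradiated library above every control. Of the tested keratins 12 averaged under 0.5 FPKM in the controls and entered the test through the irradiated libraries. Among the other 11, which averaged at least 0.5 FPKM in the controls, 10 rose, and the median change over the 11 was 2.14 on the log2 scale. Of all 12391 tested genes with that control level, 36.9% rose, and their median was 0.20.

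**Figure D1:**
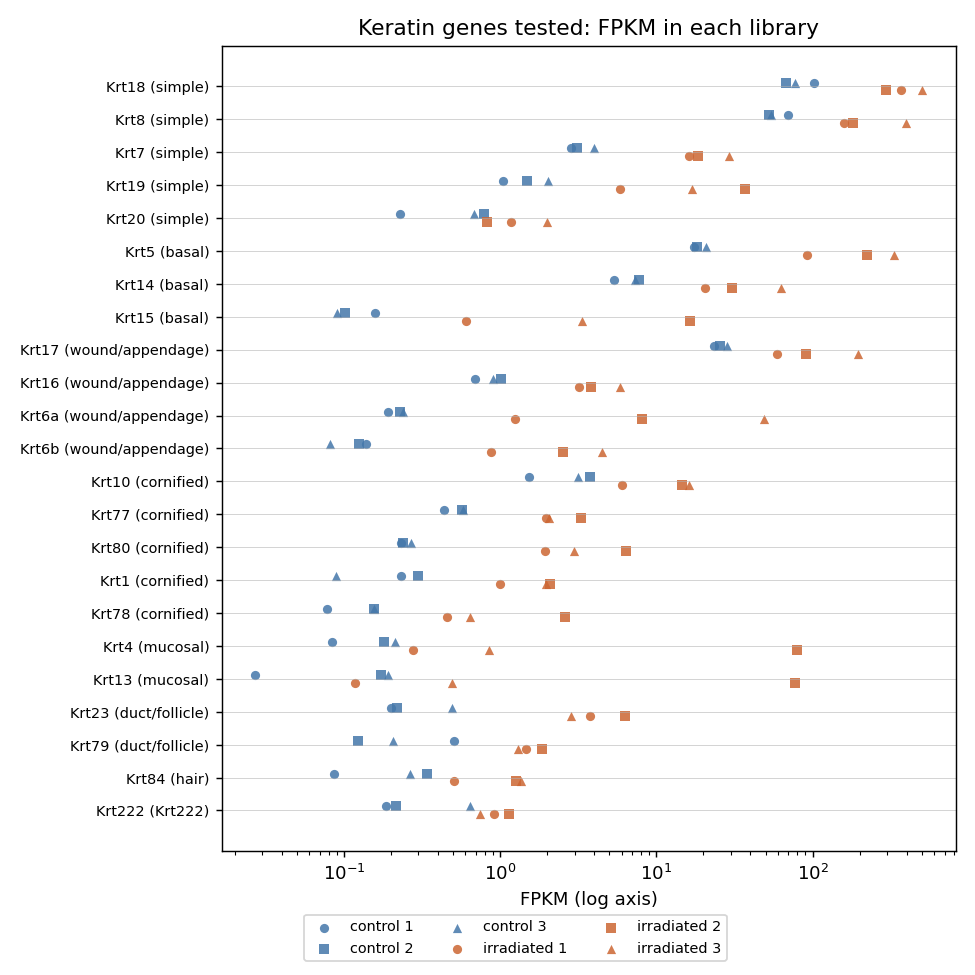
FPKM of the 23 tested keratins on a log axis, 1 row per gene, with the keratin group in brackets. Blue marks are controls, orange marks irradiated libraries, and the circle, square and triangle are replicates 1, 2 and 3. In every row but that of Krt13 the orange marks lie to the right of all blue ones, and the square of Krt4 and of Krt13 lies far from the other marks.

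As a group the simple keratins were the most abundant in every library. Krt18 (ENSMUSG00000023043, chromosome 15, 102028180 to 102032027) measured 103, 67.9 and 77.0 FPKM in control replicates 1, 2 and 3 and 370.3, 294 and 502 FPKM in irradiated replicates 1, 2 and 3. Its lowest irradiated value was above its highest control value by far more than the controls differed among themselves. The log2 fold change was 2.22 with a standard error of 0.27 (limma adjusted p = 0.000472), and 3 of 3 irradiated libraries were above all controls. Values after ± below are standard errors unless SD is named. Its type II partner Krt8 (ENSMUSG00000049382, chromosome 15, 101996698 to 102004482) measured 69.1, 52.8 and 54.0 FPKM in controls and 159, 181 and 393 FPKM in irradiated libraries. Krt8 rose by a log2 fold change of 1.95 ± 0.35 (limma adjusted p = 0.00258), and replicate 3 stood above the other irradiated libraries. A share of 26.9% of the 50-base words of the Krt8 transcript also occurs in the pseudogene Krt8-ps, so its reads may be split.

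Other simple keratins were at lower levels. Krt7, a type II keratin of ducts and glands, measured 2.84, 3.12 and 3.96 FPKM in controls and 16.1, 18.6 and 29.3 FPKM in irradiated libraries. Its groups were widely separated, and its log2 fold change of 2.62 ± 0.25 had the smallest limma adjusted p of the family (0.000207). Noncoding transcripts of Krt7 measured 9.20, 11.1 and 17.6 FPKM in the irradiated libraries, and the Krt7 values may include them. Krt19, a type I keratin of many glandular and ductal epithelia, measured 1.04, 1.48 and 2.02 FPKM in controls and 5.84, 37.0 and 17.0 FPKM in irradiated libraries. It was highest in irradiated replicate 2, and its log2 fold change of 3.32 ± 0.62 (limma adjusted p = 0.00316) was 2.69 without that library (adjusted p = 0.00508) and 4.01 without replicate 1. Krt20, a type I keratin of gut surface cells and other specialised epithelia, measured 0.230, 0.783 and 0.681 FPKM in controls and 1.17, 0.826 and 2.0 FPKM in irradiated libraries. The groups of Krt20 barely cleared each other, and its log2 fold change of 1.15 ± 0.51 did not pass (limma adjusted p = 0.0847).

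All 3 basal keratins rose, beside 42.4% of all tested genes. Krt15 averaged under 0.5 FPKM in the controls, so it entered the test through the irradiated libraries. Krt5 (ENSMUSG00000061527, chromosome 15, 101707070 to 101712898) measured 17.4, 18.1 and 20.6 FPKM in controls and 92.6, 222 and 329 FPKM in irradiated libraries. The controls were close together, while irradiated replicates 2 and 3 were each more than 100 FPKM above replicate 1. On average Krt5 went from 18.7 ± 1.71 to 215 ± 119 FPKM (SD, n = 3 each), which is 3.34 ± 0.43 on the log2 scale (limma adjusted p = 0.000615). Krt14 (ENSMUSG00000045545, chromosome 11, 100203162 to 100207548), its type I partner, measured 5.35, 7.69 and 7.27 FPKM in controls and 20.4, 30.4 and 62.3 FPKM in irradiated libraries. The groups did not overlap, and Krt14 rose by a log2 fold change of 2.32 ± 0.39 (limma adjusted p = 0.00193). Krt15, a type I keratin of basal cells that is known for marking follicle stem cells, measured 0.158, 0.101 and 0.0910 FPKM in controls and 0.602, 16.3 and 3.32 FPKM in irradiated libraries. Its irradiated libraries differed from each other more than replicate 1 differed from the controls. The log2 fold change of Krt15 was 3.99 ± 1.03 (limma adjusted p = 0.0125), 2.85 without irradiated replicate 2 (adjusted p = 0.0160) and 5.13 without replicate 1.

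The keratins of wounds and skin appendages, which epidermis switches on when injured, also rose, 4 of 4, beside 42.4% of all tested genes. Krt6a and Krt6b averaged under 0.5 FPKM in the controls, so they entered the test through the irradiated libraries. Krt17, a type I keratin, was the third most abundant keratin of the controls. It measured 23.5, 25.6 and 28.3 FPKM in controls and 58.9, 91.0 and 195 FPKM in irradiated libraries. Every irradiated value was above every control value, and the log2 fold change was 1.97 ± 0.40 (limma adjusted p = 0.00438). Krt16 measured 0.693, 1.02 and 0.906 FPKM in controls and 3.17, 3.80 and 5.86 FPKM in irradiated libraries, a log2 fold change of 2.14 ± 0.30 (limma adjusted p = 0.000882).

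Krt6a, a type II partner of Krt16 and Krt17, had the largest log2 fold change of the tested keratins, 4.68 ± 1.14 (limma adjusted p = 0.00994). It measured 0.192, 0.229 and 0.239 FPKM in controls and 1.25, 8.11 and 49.0 FPKM in irradiated libraries. Replicate 3 thus held 84.0% of its irradiated signal, and the log2 fold change was 3.38 without that library (adjusted p = 0.0124) and 5.97 without replicate 1. A noncoding transcript of Krt6a measured 23.6 FPKM in irradiated replicate 3, and the 49.0 FPKM may include it. Krt6b, its neighbour on chromosome 15, measured 0.139, 0.125 and 0.0816 FPKM in controls and 0.871, 2.52 and 4.47 FPKM in irradiated libraries. The log2 fold change of Krt6b was 3.40 ± 0.59 (limma adjusted p = 0.00225), and 4.01 without irradiated replicate 1. The split between Krt6a and Krt6b is uncertain, because 43.6% of the 50-base words of the Krt6a transcript occur in Krt6b. Krt16 shares 37.6% of its words with other genes, mainly the gene model Gm11597, and its level is uncertain for the same reason.

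Of 7 keratins of cornifying layers, 5 were tested and all 5 rose, beside 42.4% of all tested genes. Krt1, Krt78 and Krt80 averaged under 0.5 FPKM in the controls, so they entered the test through the irradiated libraries. After quantile normalization Krt77 (0.54, limma adjusted p = 0.126), Krt1 (1.13, 0.0752) and Krt78 (0.91, 0.194) no longer passed. Krt10, the type I keratin of suprabasal epidermis, measured 1.54, 3.77 and 3.16 FPKM in controls and 6.01, 14.7 and 16.3 FPKM in irradiated libraries. It was the only cornified keratin above 1 FPKM in the controls, and its log2 fold change was 2.05 ± 0.46 (limma adjusted p = 0.007). Krt1, its type II partner, measured 0.232, 0.296 and 0.0892 FPKM in controls and 0.991, 2.09 and 1.98 FPKM in irradiated libraries. Irradiated replicate 1 was the lowest of its group for Krt10 and for Krt1, and Krt1 rose by a log2 fold change of 2.55 ± 0.47 (limma adjusted p = 0.00281). A noncoding transcript assigned to Krt10 measured 0.151, 8.19 and 10.2 FPKM in the irradiated libraries, and the Krt10 values may include it. Its part in the low Krt10 value of replicate 1 was not tested.

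Krt80, a type II keratin found near desmosomes of differentiating epithelia, measured 0.234, 0.239 and 0.268 FPKM in controls and 1.93, 6.41 and 2.95 FPKM in irradiated libraries. Krt80 had the largest log2 fold change of the cornified group, 3.31 ± 0.45 (limma adjusted p = 0.000807). Krt77 measured 0.438, 0.568 and 0.581 FPKM in controls and 1.97, 3.27 and 2.05 FPKM in irradiated libraries, a log2 fold change of 1.98 ± 0.31. Krt78 measured 0.0782, 0.156 and 0.156 FPKM in controls and 0.458, 2.60 and 0.642 FPKM in irradiated libraries, a log2 fold change of 2.19 ± 0.66. Its call (limma adjusted p = 0.0228) was lost without control replicate 1, 2 or 3, at adjusted p of 0.0740, 0.0577 and 0.0569, and without irradiated replicate 2 it was under the filter. The remaining members were under the filter. Krt9 of palm and sole skin measured 0.0635, 0.989 and 0.533 FPKM in irradiated libraries and 0.0353 to 0.103 in controls, so its groups overlapped, and Krt2 stayed at or under 0.0324 FPKM in all 6 libraries.

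**Figure D2:**
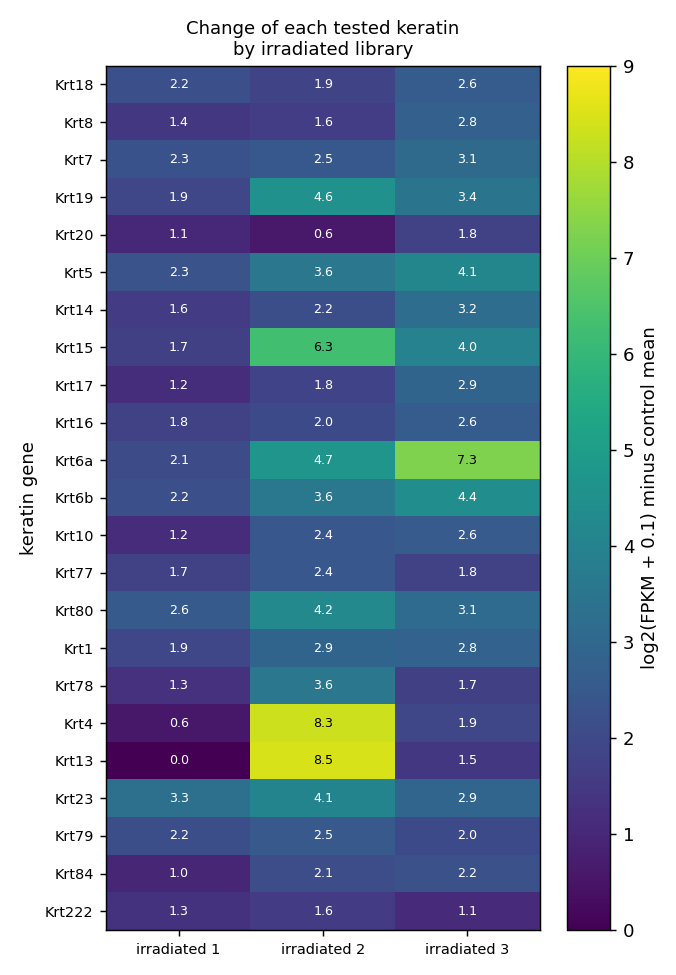
Difference of log2(FPKM + 0.1) from the control mean for each tested keratin (rows) in each irradiated library (columns), printed in the cell and coloured on the scale at the right. The column of replicate 1 has a median of 1.72, that of replicate 2 2.50 and that of replicate 3 2.76, and the brightest cells are Krt4 and Krt13 in replicate 2 and Krt6a in replicate 3.

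The mucosal pair Krt4 and Krt13, type II and type I keratins of the lining of mouth and oesophagus, was high in a single library. Krt4 (chromosome 15, 101918535 to 101924735) measured 0.0840, 0.182 and 0.214 FPKM in controls and 0.276, 79.9 and 0.849 FPKM in irradiated libraries. Krt13 (chromosome 11, 100117327 to 100121566) measured 0.0271, 0.172 and 0.192 FPKM in controls and 0.118, 76.7 and 0.494 FPKM in irradiated libraries. Both genes were under 1 FPKM in the other 5 libraries, and irradiated replicate 2 held 98.6% of the irradiated signal of Krt4 and 99.2% of that of Krt13. Neither passed limma: the log2 fold change was 3.59 for Krt4 (95% interval -0.70 to 7.88, adjusted p = 0.122) and 3.32 for Krt13 (-1.41 to 8.04, adjusted p = 0.183).

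Without irradiated replicate 2 both mucosal keratins averaged under 0.5 FPKM and were not tested, and without irradiated replicate 1 both passed, at limma adjusted p of 0.0221 for Krt4 and 0.0362 for Krt13. In the authors' deposited table both were called higher, Krt4 with a log2 fold change of 7.10 (adjusted p = 2.33e-05) and Krt13 with 7.33 (adjusted p = 0.00012). Sprr3, a cornified envelope gene of oesophagus, measured 7.33 FPKM in irradiated replicate 2 and at most 0.0831 in the others. Tgm3, a transglutaminase of squamous epithelia, measured 5.51 FPKM there and at most 0.483 in the others, while Crnn, another oesophageal gene, lay between 0 and 0.356 FPKM in all 6. Of the 5 tested genes of that 8-gene list, which includes Krt4 and Krt13, 1 rose (Cnfn) and 0 fell. In the same fit 42.4% of all tested genes rose and 20.9% fell. The 5 tested genes of the list all averaged under 0.5 FPKM in the controls, so they entered the test through the irradiated libraries. The airway genes were high in irradiated replicate 2 too, and their part in these keratin values was not tested.

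**Figure D3:**
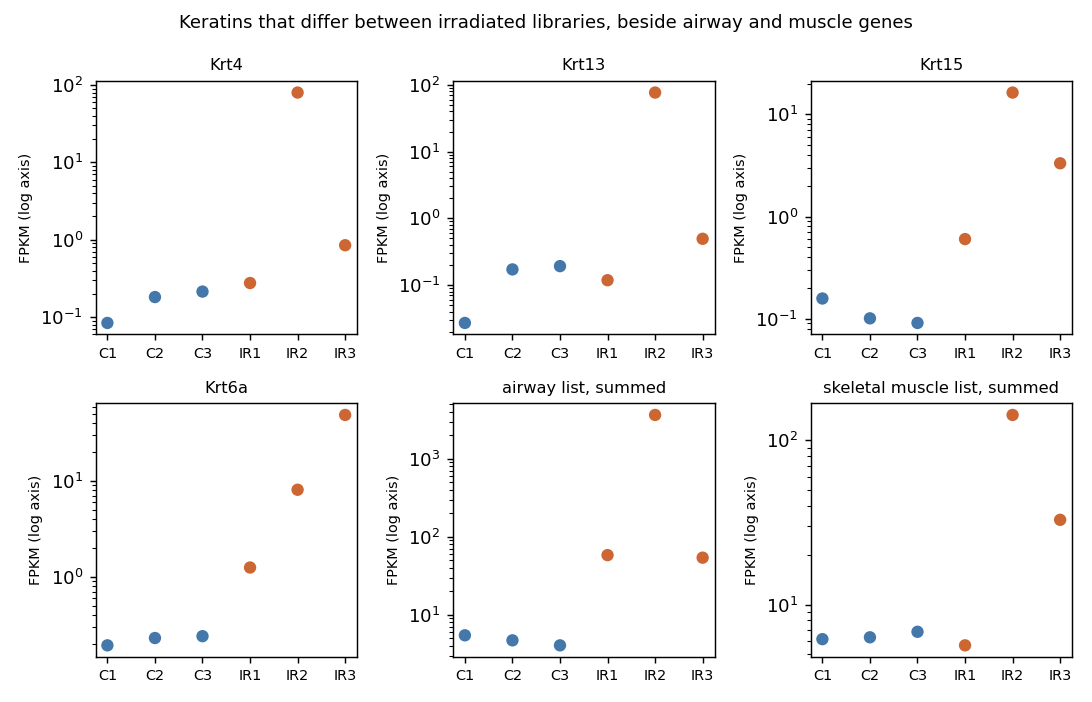
FPKM on log axes of 4 keratins whose irradiated libraries differ (Krt4, Krt13, Krt15, Krt6a) and of the summed airway and skeletal muscle lists, for control (C) replicates 1 to 3 in blue and irradiated (IR) replicates 1 to 3 in orange. Krt4, Krt13, Krt15 and both lists are highest in irradiated replicate 2, and Krt6a is highest in replicate 3.

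Keratins of ducts, follicles and hair were low. Krt23, Krt79, Krt84 and Krt222 averaged under 0.5 FPKM in the controls, so they entered the test through the irradiated libraries. After quantile normalization Krt79 (0.78, limma adjusted p = 0.174), Krt84 (0.32, 0.594) and Krt222 (-0.16, 0.768) no longer passed. Krt23, a type I keratin of glandular epithelia, measured 0.20, 0.220 and 0.493 FPKM in controls and 3.75, 6.27 and 2.83 FPKM in irradiated libraries, a log2 fold change of 3.43 ± 0.42 (limma adjusted p = 0.000519). Krt79, a type II keratin known from the duct of the hair follicle, measured 0.508, 0.123 and 0.207 FPKM in controls and 1.46, 1.86 and 1.31 FPKM in irradiated libraries (2.23 ± 0.46 on the log2 scale, limma adjusted p = 0.0046). For both genes the lowest irradiated library was irradiated replicate 3. Krt84, a hair keratin, measured 0.0858, 0.340 and 0.264 FPKM in controls and 0.505, 1.27 and 1.36 FPKM in irradiated libraries. Its call (log2 fold change 1.78 ± 0.54, limma adjusted p = 0.0242) was lost without the first control (0.0773), the third control (0.0551) or the second irradiated library (0.0641). Krt222, a keratin-like gene of uncertain role, measured 0.186, 0.215 and 0.646 FPKM in controls and 0.916, 1.13 and 0.746 FPKM in irradiated libraries. Its rise (1.33 ± 0.48, limma adjusted p = 0.0449) was lost in 5 of the 6 fits that leave out a library, at adjusted p of 0.0566 to 0.139, and passed only without control replicate 3. A noncoding transcript of Krt222 measured 0.461 FPKM in control replicate 3, and the 0.646 FPKM of the gene there may include it.

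The 30 keratins under the filter include 14 of 15 hair keratins and all 7 keratins of the inner root sheath. They reached at most 0.989 FPKM in any library and 0.311 in any control. Krt40 was listed at 0 in all 6 libraries, and 7 of the 30 were listed at 0 in all 3 controls. Beside Krt9, those with at least 0.5 FPKM in a library were Krt36 (0.387, 0.635 and 0.526 FPKM in irradiated libraries, at most 0.109 in controls), Krt71 (0.553 in irradiated replicate 2) and Krt83 (0.743 in irradiated replicate 1). The value of Krt83 may include a noncoding transcript that measured 0.673 FPKM in the same library. Every irradiated value was above every control value for 7 of the 30, and for 19.9% of all 7953 genes under the filter, which is a similar share. Among the 7 were Krt36 and Krt75 (0.279, 0.427 and 0.288 FPKM against at most 0.0137 in controls). Krt84 was the last gene inside the filter, with a mean of 0.636 FPKM over the 6 libraries, and Krt9 the first outside it, with 0.298.

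The irradiated libraries differed in keratin level. Irradiated replicate 1 had the lowest irradiated value in 18 of the 23 tested keratins, and in none of them the highest. Replicate 2 was highest in 11 and replicate 3 in 12. Summed over all 53 genes, keratin signal was 228, 187 and 203 FPKM in controls and 752, 1107 and 1629 FPKM in irradiated libraries. As a share of all FPKM this was 0.0856, 0.0680 and 0.0752% in controls and 0.302, 0.350 and 0.533% in irradiated libraries. The irradiated mean share was 5.18-fold the control mean (exact two-sided permutation p = 0.1). With 3 libraries against 3 that is the smallest p possible, and no value below 0.226 remained after Benjamini-Hochberg adjustment over the 43 sums, shares and ratios tested in this way.

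The basal share of the keratin signal was higher in each irradiated library than in any control. Basal keratins made up 10.1, 13.9 and 13.8% of keratin FPKM in controls and 15.1, 24.3 and 24.3% in irradiated libraries (exact permutation p = 0.1). Krt5 alone made up 7.65 to 10.2% in controls and 12.3, 20.05 and 20.2% in irradiated replicates 1, 2 and 3. Krt8 made up 26.6 to 30.4% in controls and 21.1, 16.3 and 24.2% in irradiated libraries, also without overlap (exact permutation p = 0.1). The simple group as a whole overlapped between groups: it made up 77.2, 67.6 and 67.9% in controls and 73.4, 48.0 and 58.0% in irradiated libraries (exact permutation p = 0.3). Without irradiated replicate 2 the difference of the group means in the simple share was -5.17 percentage points, against -11.1 with it, and without irradiated replicate 1 it was -17.9. Cornified keratins made up 1.15, 2.75 and 2.13% in controls and 1.52, 2.72 and 1.5% in irradiated libraries, with a difference of -0.098 percentage points that was within the spread (exact permutation p = 0.9). Mucosal keratins made up 14.2% of keratin FPKM in irradiated replicate 2 and at most 0.395% in the other 5 libraries.

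**Figure D4:**
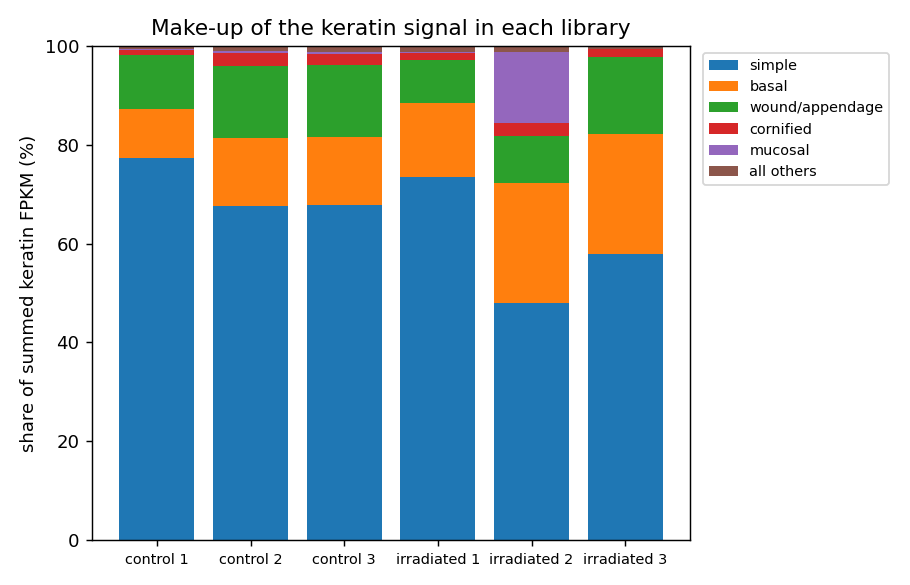
Share of summed keratin FPKM (in %, bars from 0 to 100) held by each keratin group, 1 bar per library. The basal segment is 10.1 to 13.9% in controls and 15.1 to 24.3% in irradiated libraries, and the mucosal segment is large only in irradiated replicate 2, at 14.2%.

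Ratios between keratins were read within each library. Such log2 ratios of FPKM + 0.1 do not depend on scaling between libraries, apart from the pseudocount. Krt5 to Krt8 was -1.98, -1.54 and -1.38 in controls and -0.78, 0.30 and -0.26 in irradiated libraries, so all 3 irradiated libraries were above the controls, and the basal gene exceeded the simple gene in replicate 2. The difference was 1.39 (exact permutation p = 0.1), and 1.12 without irradiated replicate 2. Krt14 to Krt5, the type I to type II ratio of the basal pair, was -1.68, -1.22 and -1.49 in controls and -2.18, -2.86 and -2.40 in irradiated libraries, a difference of -1.01 (exact permutation p = 0.1). Krt17 to Krt5 was 0.43 to 0.50 in controls and -0.65, -1.29 and -0.76 in irradiated libraries, so Krt5 was above Krt17 in all 3 and below it in all controls. Krt18 to Krt8, the simple pair, was 0.57, 0.36 and 0.51 in controls and 1.22, 0.70 and 0.35 in irradiated libraries. These groups overlapped, and the difference of 0.28 was within the spread (exact permutation p = 0.5). The ratio of Krt17 to Krt5, like that of Krt18 to Epcam below, was chosen after its values were seen.

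**Figure D5:**
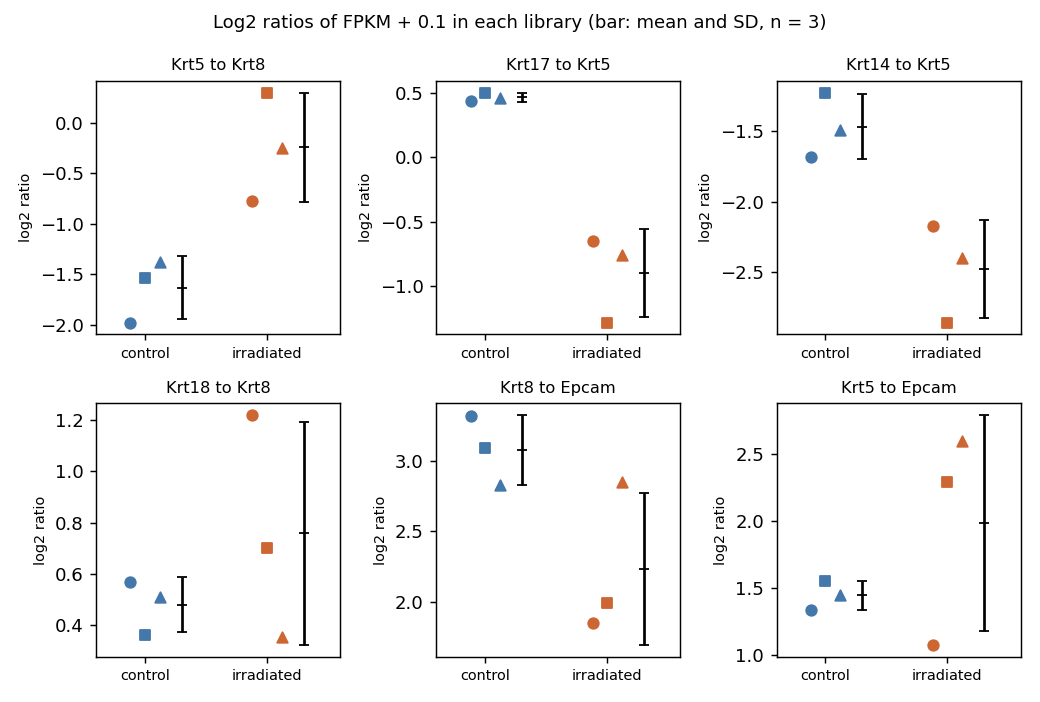
Log2 ratios of FPKM + 0.1 for 6 gene pairs, 1 mark per library (circle, square and triangle are replicates 1, 2 and 3), with the mean and SD of each group as a bar (n = 3). Krt5 to Krt8, Krt17 to Krt5 and Krt14 to Krt5 show groups that do not overlap, while Krt18 to Krt8, Krt8 to Epcam and Krt5 to Epcam overlap.

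Keratins were set against Epcam, an adhesion gene of most epithelial cells, which measured 6.82, 6.11 and 7.52 FPKM in controls and 44.0, 45.4 and 54.6 FPKM in irradiated libraries. Epcam rose by a log2 fold change of 2.80 ± 0.15 (limma adjusted p = 5.3e-05), and its irradiated libraries were closer together than those of Krt5 or Krt8. Of 23 tested keratins, 14 had a smaller log2 fold change than Epcam and 9 a larger one. None had a ratio to Epcam above all controls in all 3 irradiated libraries, and 5 had one below all controls in all 3 (Krt18, Krt16, Krt77, Krt20 and Krt222). Such counts were not made over all tested genes, so they do not set keratins apart from other genes. Krt18 to Epcam was 3.89, 3.45 and 3.34 in controls and 3.07, 2.69 and 3.20 in irradiated libraries (difference -0.57, exact permutation p = 0.1). Krt8 to Epcam differed by -0.85 (exact permutation p = 0.2) and Krt5 to Epcam by 0.54 (exact permutation p = 0.4), both with overlapping groups.

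Genes that keratin filaments attach to were higher too. Of all tested genes 42.4% rose and 20.9% fell, which holds for each count given here. Of the genes that rose, Dsg3, Pkp2, Col17a1, Ppl, Klk7 and Cnfn averaged under 0.5 FPKM in the controls. They entered the test through the irradiated libraries. Desmosomes bind keratins at cell-cell contacts, and 10 of 11 tested desmosome genes rose and 0 fell, with a median log2 fold change of 2.49. Dsc2, a desmosomal cadherin, measured 2.70 to 4.31 FPKM in controls and 22.5 to 29.6 in irradiated libraries, and Perp, a desmosome component and target of p53, 12.9 to 14.2 and 83.2 to 163 FPKM. Hemidesmosomes bind keratins to the basement membrane, and 9 of 9 genes of these and of their laminin rose, with a median of 2.46. Lama3 and Lamb3, chains of that laminin, had log2 fold changes of 4.15 ± 0.29 and 2.46 ± 0.20 (limma adjusted p = 7.88e-05 and 0.000118). Of 14 tested genes of the cornified envelope, 11 rose and 0 fell, with a median of 2.48. Among those that rose were Ppl, which links the envelope to keratins (3.33), and Dmkn (2.57). The other 3 did not pass, among them Evpl (-0.11, limma adjusted p = 0.83).

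Intermediate filament genes other than keratins include those of other cell types and the nuclear lamins, which nearly all cells have. Of 9 tested, 5 rose and 2 fell, beside 42.4% and 20.9% of all tested genes, and the median was 1.67. Nes, among those that rose, averaged under 0.5 FPKM in the controls, so it entered the test through the irradiated libraries. Both that fell are lamins, Lmnb1 and Lmnb2. Synm of muscle and other cells rose by 2.39, Lmnb1 fell by 2.72 and Lmnb2 by 0.98 on the log2 scale, while the lamin gene Lmna rose by 2.83. Vim, the filament gene of fibroblasts and leukocytes, measured 34.5 to 51.1 FPKM in controls and 68.8 to 178 in irradiated libraries. Des of muscle measured 3.30, 56.0 and 15.7 FPKM in irradiated replicates 1, 2 and 3, in the same order as the skeletal muscle list, and its log2 fold change of 3.72 was 2.75 without irradiated replicate 2 (limma adjusted p = 0.0123).

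Transcription factors of epithelia were higher as well. Of 13 tested epithelial regulators 12 rose and 0 fell, beside 42.4% and 20.9% of all tested genes, with a median log2 fold change of 2.70. Elf3, Grhl3, Tfap2a and Ovol2 averaged under 0.5 FPKM in the controls, so they entered the test through the irradiated libraries. Elf3 had the smallest adjusted p (4.40 ± 0.26, limma adjusted p = 5.75e-05), followed by the splicing regulator Esrp1 (2.83 ± 0.18). Trp63, needed for basal cells of layered epithelia, measured 5.61 to 7.95 FPKM in controls and 62.9, 33.6 and 30.2 FPKM in irradiated replicates 1, 2 and 3. Its highest irradiated library was thus replicate 1, in which Krt5 and Krt14 had their lowest irradiated values. Foxn1, the master factor of thymic epithelium, measured 2.23 to 3.48 FPKM in controls and 7.56, 17.9 and 12.3 FPKM in irradiated libraries.

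Marker lists of the epithelia and other cells that a thymus dissection could hold were read beside the keratins. In the same fit 42.4% of all tested genes rose and 20.9% fell. Of 10 cortical epithelial genes 7 rose and 0 fell (median 1.77, Pax9 and Pax1 with the smallest p). The other 3 had negative log2 fold changes that did not pass, -1.37 for the chemokine Ccl25, -0.99 for the thymic protease Prss16 and -0.78 for the thymoproteasome subunit Psmb11 (limma adjusted p = 0.0665, 0.294 and 0.326). Of 10 medullary gene identifiers, with Ccl21a counted under 2, all 10 rose (median 1.93). Of 10 epithelial junction genes 9 rose, including Cdh3 and Epcam. Of 6 tested tuft cell genes 4 rose, including Avil and Trpm5, and 1 fell. Of 9 tested airway genes 5 rose, with the smallest adjusted p for Foxj1 and Cyp2f2, and of 6 skeletal muscle genes 4 rose, with the smallest for Myl1 and Acta1. Without irradiated replicate 2, 4 airway genes were left above the filter and all 4 rose, and 3 of 6 skeletal muscle genes rose. Among 7 tested genes of epidermis and its appendages 4 rose, including Asprv1 and Flg, and 1 fell, with 2 of 6 rising and 1 falling without that library, while Lor, a defining gene of cornified epidermis, lay at or under 1.81 FPKM in all libraries. All 7 fibroblast genes rose (median 2.98, with the smallest adjusted p for Col1a2 and Mgp), as did 3 of 3 tested parathyroid genes (smallest for Casr and Chga), of which 2 rose without irradiated replicate 2. Summed levels were 468 to 748 FPKM in controls and 805 to 1525 in irradiated libraries for the cortical list. Ctsl alone measured 148 to 200 and 412 to 882 FPKM, so the rise of that sum rests largely on Ctsl. The medullary list summed to 73.4 to 93.5 and 452 to 1034 FPKM. Most of it was Ccl21a, at 35.4 to 43.1 and 239 to 525 FPKM under 1 identifier. Under the other Ccl21a measured 18.8 to 28.2 and 167 to 432 FPKM. The sums were 69.8 to 93.1 and 691 to 744 FPKM for fibroblasts. For epidermis and appendages, in which Krtap3-1 was listed at 0 throughout, they were 10.5 to 14.9 and 24.4 to 39.0 FPKM. Several genes that rose averaged under 0.5 FPKM in the controls, so they entered the test through the irradiated libraries. These were Myl1, Acta1, Myh4, Ckm, Foxj1, Muc5b, Scgb1a1, Pou2f3, Casr, Tchh, Hrnr, Ocln and Marveld3. Some genes stand in more than 1 list. The part of these cells in the keratin values was not tested.

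The lncRNA table lists 30 noncoding transcripts of 22 keratin genes. Of these, 9 reached 0.5 FPKM in a library and 4 were listed at 0 in all libraries. After summing to genes, 4 were tested and 1 rose, against 15.8% of the 9421 genes tested in that table, and 2 of the 4 had an unadjusted p under 0.05. Both tables give the same FPKM for Krt26 in irradiated replicate 2 (0.0213), Krt35 in control replicate 3 (0.0190) and Krt42 in control replicate 2 (0.121). A gene value of the mRNA table may thus include noncoding transcripts of that gene. The noncoding transcripts of Krt7 measured 1.55, 0.931 and 2.46 FPKM in controls and 9.20, 11.1 and 17.6 FPKM in irradiated libraries. Their log2 fold change was 2.91 ± 0.38 (limma adjusted p = 0.000964). The Krt7 values of the mRNA table may include them, so both rises may not be independent of each other. A noncoding transcript of Krt6a (chromosome 15, 101689928 to 101694279) measured 23.6 FPKM in irradiated replicate 3 and at most 0.193 elsewhere. In that library the mRNA table gives 49.0 FPKM for Krt6a, its highest value. The gene value may include the transcript, so these peaks may not be independent of each other. The transcript assigned to Krt10 measured 0, 3.35 and 0.0904 FPKM in controls and 0.151, 8.19 and 10.2 FPKM in irradiated libraries, and its difference did not pass (limma adjusted p = 0.187). That of Krt14 measured 0.758 to 1.72 FPKM in controls and 1.43 to 3.84 in irradiated libraries and did not pass either (limma adjusted p = 0.0846). Reads of a coding and a noncoding transcript of a gene overlap in sequence, and how the authors divided them is not given in the sources used here.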

How the data were processed

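Libraries were made from polyadenylated thymus RNA, per the labels. The authors deposited an mRNA and a lncRNA table with an FPKM value per library, and the log2 fold changes, p-values and adjusted p-values that the authors got from DESeq2 (version 1.10.1 in the submitters' processing notes). The aligner, the counting method and the use of strand are not named in those sources. Genes repeat their values on each transcript line, so 1 line per gene was used. Depth was estimated from the smallest steps of FPKM times length, where 1 fragment in 1 kb is worth 0.0392 to 0.0456 FPKM.

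Values were tested as log2(FPKM + 0.1) for genes averaging at least 0.5 FPKM, with limma 3.58.1 in R 4.3.3 (group only, moderated variance with trend), Benjamini-Hochberg adjusted over all tested genes, at a threshold of 0.05. The fit was tested on simulated data. For single sums, shares and ratios the test was an exact permutation of the 6 libraries, two-sided. Fold changes on this scale understate changes of low genes. The keratin groups, marker lists and members were chosen with earlier results of these data known. Every tested keratin was named. Of each other list the 2 tested genes with the smallest adjusted p were named, plus Epcam, Trp63 and Foxn1, and further genes were named for their values. Promoter motifs and 50-base words of GENCODE M21 transcripts were searched on GRCm38. Alternatives were 2 other pseudocounts, 2 other filters, 3 scalings, a fit without trend, a replicate block and leaving out each library.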

Additional observations from a re-analysis of the deposited data

How the results depend on the processing

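The count of 20 higher keratins fell to 13 after quantile normalization, where the median of all tested genes was -0.09 against 0.40 in the deposited FPKM. There Krt15, Krt77, Krt1, Krt78, Krt79, Krt84 and Krt222 no longer passed, Krt222 (-0.16) and Krt20 (-0.35) changed sign without passing, and the cause was not tested. The count was 18 with a pseudocount of 1 and 20 with 0.01. It was 27 of 52 without a filter and 14 of 14 with at least 1 FPKM in 3 libraries. The irradiated libraries alone can meet that last filter, as they did for Krt6a, Krt23, Krt77, Krt79 and Krt80. Shares of all genes were not counted under these settings. The count was 19 with median-ratio or summed-FPKM scaling and 17 to 21 when a library was left out. No keratin was lower under any of these alternatives. The difference in the cornified share, -0.098 percentage points, ran from -0.53 to 0.27 when a library was left out, with 0.271 without control replicate 2, 0.0989 without irradiated replicate 1 and 0.108 without irradiated replicate 3. After quantile normalization it was -1.53 (exact permutation p = 0.2), the difference in the simple share was -6.06 against -11.1 (exact permutation p = 0.5), and that in Krt8 to Epcam was -0.57 against -0.85. All other shares and ratios of the design kept their direction under the alternatives run. The lists of other genes were also counted without irradiated replicate 2, an alternative chosen after seeing the data: the number of higher genes changed by at most 1 in each list except epidermis and appendages, where it was 2 against 4. With the replicate number as a block, 19 keratins were higher, with only Krt222 lost (limma adjusted p = 0.085). The numbers do not pair the libraries, since deviations of same-numbered libraries correlated at 0.06, -0.04 and 0.05. A fragment on a transcript of 1 kb was worth 0.0392 to 0.0456 FPKM, so values of keratins far under 0.5 FPKM rest on few fragments.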

Other observations

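Genes whose symbols begin with Krt but fall outside the family were read in the same fit. Of 57 keratin-associated protein genes (Krtap), which form the matrix around hair keratins, 49 were listed at 0 in all 6 libraries and the highest value was 0.318 FPKM, so 0 were tested. Krtdap, a secreted protein of differentiating keratinocytes, measured 2.61, 4.78 and 1.96 FPKM in controls and 13.4, 27.8 and 35.3 FPKM in irradiated libraries, and rose by a log2 fold change of 2.98 ± 0.44 (limma adjusted p = 0.00108). Krtcap3 rose by 0.65 ± 0.24 (limma adjusted p = 0.0451), and Krtcap2, a subunit of the oligosaccharyltransferase, had a log2 fold change of 0.36 ± 0.16 that did not pass (limma adjusted p = 0.0913).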
